A study of Mus musculus with 8 samples.

Results

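This report describes histone H3 trimethylated at lysine 9 (H3K9me3), as mapped by ChIP-seq (chromatin immunoprecipitation, then sequencing) in fibroblasts of mouse embryos (MEFs) with and without the histone acetyltransferase HAT1. It covers the 4 H3K9me3 libraries of the 8 libraries in the series, 2 from HAT1 KO and 2 from HAT1 WT cells, and all 14515 regions left in the H3K9me3 table after 314 exact repeats were removed from its 14829 rows. All 4 libraries came from MEFs of C57bl6 background that had been immortalized with SV40 T antigen, from HAT1+/+ embryos for WT and HAT1-/- embryos for KO. Human Dbt immortalized myoblasts were mixed into every sample as a spike-in. The immortalized lines stand for 2 embryos per genotype, so a p-value here measures only the spread between these few lines.

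H3K9me3 is the mark of constitutive heterochromatin. It is written by the SUV39H enzymes and by SETDB1, is read by the HP1 proteins, and is known for covering pericentromeric satellite repeats, retrotransposons, clusters of zinc-finger genes and the silent allele of imprinted control regions. HAT1 acetylates newly made histone H4 before it is built into chromatin behind the replication fork. The question of the comparison was where the mark sits in each genotype and which loci differ when HAT1 is lost.

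Library totals were 4198681 and 4622356 reads for KO, against 5810914 and 5696058 for WT, as recovered from the deposited RPM values (reads scaled to a fixed library total). Of these, 19.7% and 20.4% fell in the regions in KO and 12.01% and 13.6% in WT. Counts were low, with a median of 18 and 21 reads per region in KO and 12 in each WT library. Because the regions hold a larger share of the KO libraries, the main comparisons below are given on 2 scales. Scaling by the library total keeps a difference shared by all regions, and scaling by the counts in regions removes it. The libraries of one genotype also stood apart at some loci. With a floor of 5 RPM, KO library 1 exceeded each of the other libraries at least 4-fold in 112 regions, KO library 2 in 71, WT library 1 in 5 and WT library 2 in 53. Of these, 31 regions of WT library 2 lay on chromosome 13, against 7 of KO library 1 and 3 of KO library 2. RPM was higher in KO in 87.1% of all regions, so these numbers do not compare KO with WT libraries on equal terms. WT library 2 also held at most 10% of the RPM of every other library in 14 regions, where the other 3 libraries had 0 such regions each. WT library 1 stood apart on the sex chromosomes. Chromosome X held 2.89% of its counts, with the 10 regions with the most reads left out, against 4.52%, 5.11% and 4.98% in KO library 1, KO library 2 and WT library 2, and chromosome Y held 0.669% against 0.224%, 0.194% and 0.207%. The part these differences play in the results was not tested.

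The sequences below are the middle 240 bases of 5 regions on which the account turns, from the plus strand of GRCm38, the build of the coordinates (mm10). They are the region with the most reads, the regions with the smallest FDR among those higher and those lower in KO per region counts, the strongest region over an imprinted gene, and an exon of Cdc27, lower in KO with the WT libraries alike and picked after its values were seen. Capitals mark CpG dinucleotides, except in Cdc27, where they mark the 148 bases annotated as exon.
Most reads, over Gm10800, chr2:98666692-98666931: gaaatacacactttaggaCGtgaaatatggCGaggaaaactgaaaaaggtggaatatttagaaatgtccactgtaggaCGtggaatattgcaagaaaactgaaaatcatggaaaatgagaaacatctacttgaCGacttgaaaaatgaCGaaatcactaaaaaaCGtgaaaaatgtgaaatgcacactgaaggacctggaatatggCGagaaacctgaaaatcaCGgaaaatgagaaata
Higher in KO, intergenic, chr2:100779054-100779293: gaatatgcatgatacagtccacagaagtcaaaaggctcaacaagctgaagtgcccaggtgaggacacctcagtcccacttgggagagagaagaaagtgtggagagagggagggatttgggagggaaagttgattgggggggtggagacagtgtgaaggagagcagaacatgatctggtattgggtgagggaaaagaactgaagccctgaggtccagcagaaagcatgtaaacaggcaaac
Lower in KO, beside Gm36079, chr13:120025758-120025997: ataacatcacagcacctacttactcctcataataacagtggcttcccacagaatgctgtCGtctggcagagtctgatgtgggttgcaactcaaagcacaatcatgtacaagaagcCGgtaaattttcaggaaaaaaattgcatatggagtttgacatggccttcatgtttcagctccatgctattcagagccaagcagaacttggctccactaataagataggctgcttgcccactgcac
Over Nap1l5, chr6:58906886-58907125: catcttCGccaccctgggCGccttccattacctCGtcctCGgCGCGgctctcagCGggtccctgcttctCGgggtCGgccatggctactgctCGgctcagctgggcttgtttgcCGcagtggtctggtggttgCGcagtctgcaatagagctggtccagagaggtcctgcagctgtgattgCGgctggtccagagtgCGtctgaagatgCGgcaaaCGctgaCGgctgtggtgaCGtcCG
Exon of Cdc27, chr11:104534681-104534920: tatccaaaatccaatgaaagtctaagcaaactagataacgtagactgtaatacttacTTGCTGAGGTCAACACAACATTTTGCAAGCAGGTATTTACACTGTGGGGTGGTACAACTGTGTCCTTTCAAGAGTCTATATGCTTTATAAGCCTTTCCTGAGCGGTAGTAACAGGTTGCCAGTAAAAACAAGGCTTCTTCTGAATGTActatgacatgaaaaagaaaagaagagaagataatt
The sequence of the region with the most reads had a GC content of 35.8% with 8 CpG dinucleotides, and the stretch over Nap1l5 had 63.8% and 19. The stretch shown from the region higher in KO held 0.

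A few loci held a large part of the H3K9me3 signal, and most of the regions lay outside genes. The 10 regions with the most reads held 45.4% and 44.6% of the region counts in KO and 48.1% and 49.3% in WT. The first of them, at chr2:98666223-98667402 over the predicted gene Gm10800, alone had 172047 and 185895 reads in KO against 160475 and 177703 in WT. Its log2 fold change, KO over WT, was 0.47 (SE 0.37, edgeR FDR 0.380) per library total and -0.18 (SE 0.26, edgeR FDR 0.802) per region counts, so it did not pass the test on either scale. Others of the 10 were at the centromere-proximal end of chromosome 9 over Gm10722, Gm10718 and Gm11168, on chromosome 2 over Gm10801 and on chromosome 17 over Gm26917 and Gm42418. None of the 10 was called by edgeR or DESeq2 on either scale, with an unadjusted edgeR p under 0.05 at 2 per library total and 0 per region counts. Their median log2 difference was 0.61 per library total and -0.04 per region counts.

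Over all regions, 10331 were intergenic, 3341 lay in introns and 840 touched an exon, and 28.9% of those on the assembled chromosomes overlapped a gene, where gene bodies cover 44.8% of these chromosomes. Within 1 kb of a transcription start lay 5.28% of the regions. The median region was 289 bp wide, had a GC content of 49.9% against 41.7% in the genome, and was 70.7% repeat-masked against 36.4% in the genome. The density of regions ran from 3.12 per Mb on chromosome 11 to 6.71 per Mb on chromosome X, and was 0.305 per Mb on chromosome Y. Of 21992 protein-coding genes, 1501 overlapped a region. The genes with the most regions, chosen after their values were seen, were Lrp1b with 46, a lipoprotein receptor-related gene, Csmd3 with 39, Sntg1 with 32, and Cdh12, a cadherin, and Cntnap2, a neurexin-family adhesion gene, with 28 each. None of 29 fibroblast marker genes, such as the collagens, overlapped a region, and the same held for 43 Hox genes and 15 pluripotency genes. The bodies of these genes span 0.931, 0.386 and 0.402 Mb, where the genome held 5.28 regions per Mb, so few regions could fall there.

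Per library total, the mark was higher in KO across the table. The median log2 difference between genotypes was 1.00, with quartiles of 0.44 and 1.52. Both KO libraries exceeded both WT libraries in 57.6% of regions and were below both in 2.65%. Per region counts the median was 0.35, and these shares were 30.0% and 10.8%. The exact permutation test over the library medians gave p = 0.333 on both scales, which is the smallest possible with 2 libraries against 2. TMM factors set the bulk of regions to no change, and the medians with them were -0.011 and -0.012. The difference was largest where signal was weakest. In regions with a mean count under 10 the median log2 difference was 1.57 per library total and 0.92 per region counts. In the 358 regions with a mean count from 50 to under 100 it was 0.39 and -0.26, and in the 53 with 1000 or more it was 0.74 and 0.09. The mean count comes from the same libraries as the difference. The regions are peaks called from the authors' ChIP-seq reads, so a locus could enter the table through libraries where it was high. Regions without a read numbered 31 and 18 in the KO libraries and 166 and 250 in the WT libraries. The part of this choice of regions in the difference was not tested. The medians also moved with the number of peak summits in a region, from 1.05 per library total in the 12606 regions with 1 summit (86.8% of all) to 0.40 in the 264 with 4 and 0.61 in the 68 with 5 or more, and the part of the summit number in the pattern was not tested.

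**Figure D1:**
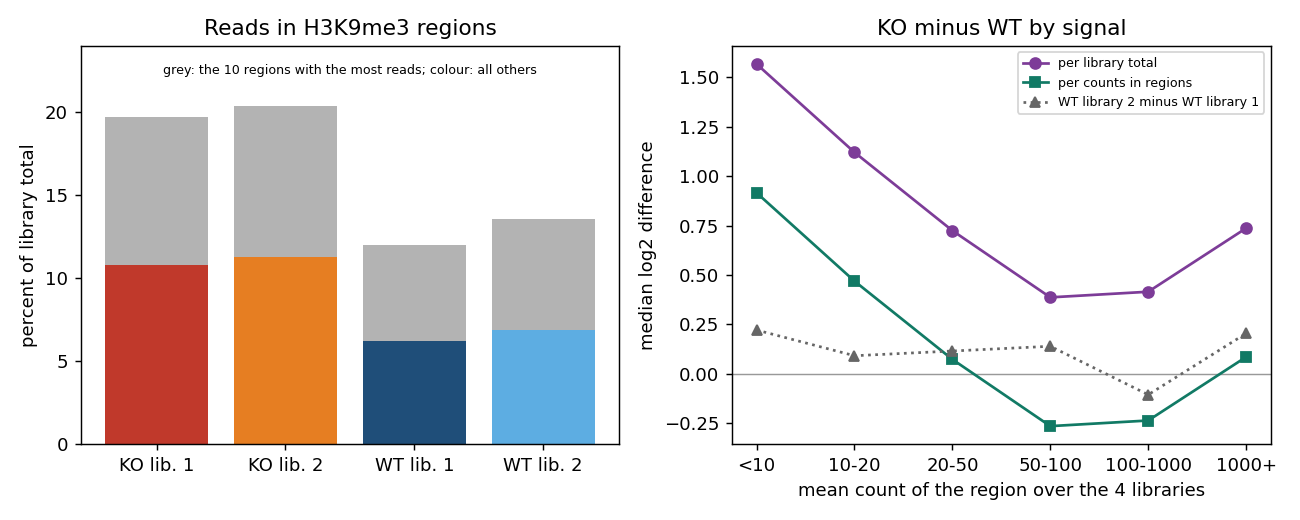
Left, percent of each library's reads that fell in H3K9me3 regions, split into the 10 regions with the most reads (grey) and all others (colour). Right, median log2 difference by the mean count of the region, KO minus WT on both scales, and WT library 2 minus WT library 1 per library total. KO bars reach 19.7% and 20.4%, WT bars 12.01% and 13.6%, and the KO minus WT medians fall from 1.57 and 0.92 at the lowest counts to 0.39 and -0.26 at counts from 50 to 100.

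The difference was uneven between chromosomes. Per library total the median log2 difference was 1.42 on chromosome 19, the highest of the autosomes, and 0.60 on chromosome 13, the lowest, with 0.66 on chromosome 7 and 0.71 on chromosome 4. Per region counts these medians were 0.76, -0.05, 0.01 and 0.06. On chromosome 19 the WT libraries were alike, with a median difference of 0.03 between them, whereas on chromosome 13 WT library 2 lay 0.50 above WT library 1. Chromosome 19 held 2.22% and 2.07% of the counts outside the 10 strongest regions in KO and 1.67% and 1.45% in WT, without overlap of the groups. On this measure chromosomes 1, 2, 6 and 15 were also higher in KO without overlap, and chromosomes 4, 7 and 13 lower. On chromosome X the medians of 1.34 per library total and 0.69 per region counts stood beside a difference of 0.90 between the WT libraries, and on chromosome Y medians of -0.04 and -0.69 beside -2.54.

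**Figure D2:**
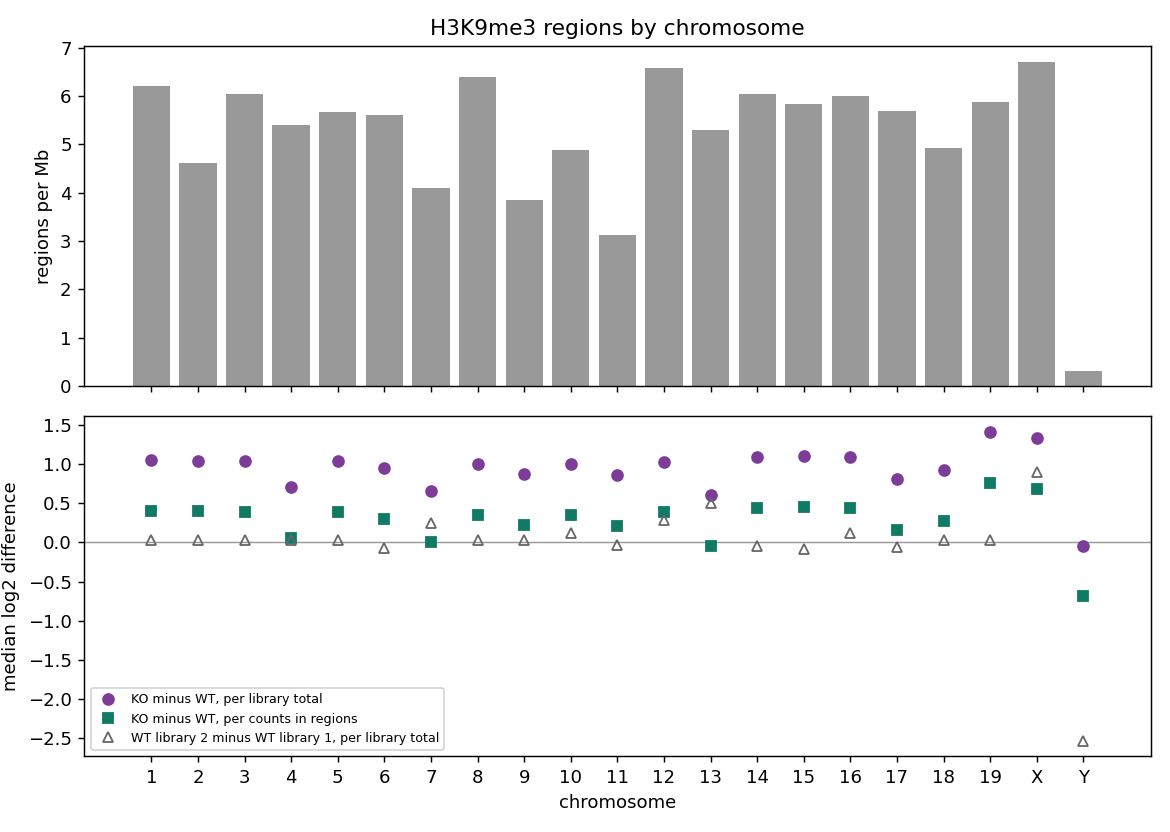
Top, H3K9me3 regions per Mb of each chromosome. Bottom, median log2 difference over the regions of each chromosome with the 10 strongest regions left out, KO minus WT per library total (circles) and per counts in regions (squares), and WT library 2 minus WT library 1 (triangles). Chromosome 19 has the highest autosomal values, 1.42 and 0.76, and the WT libraries differ from each other most on X and Y.

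At the level of single regions, edgeR called 114 regions higher in KO and 15 lower per library total at an FDR under 0.05, of the 14515 tested (0.785% and 0.103%). Per region counts it called 8 higher and 50 lower (0.0551% and 0.344%). Both KO libraries exceeded both WT libraries at all 114 and all 8 of the higher calls, and were below both at 6 of the 15 and 36 of the 50 lower calls. Leaving out KO library 1 left 0 edgeR calls on either scale, with an unadjusted p under 0.05 at 2869 higher and 62 lower regions per library total and 560 and 210 per region counts. Leaving out KO library 2 left 11 and 0. Leaving out WT library 1 gave 304 and 288, and leaving out WT library 2 gave 173 and 100. In simulated data of this depth the test recovered 0.5% of regions changed 4-fold, so a region without a call says little about its difference. All 8 regions called higher per region counts, and all 15 called lower per library total, were also called on the other scale.

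Among the higher calls per library total, the smallest FDR was on the unplaced scaffold JH584304.1, which held 14 of the 114. Its region from 58530 to 59249, over an exon of the predicted gene AC149090.1, had 994 and 906 reads in KO against 342 and 273 in WT. Its log2 fold change was 2.02 (SE 0.33, edgeR FDR 4.25e-06) per library total and 1.36 (SE 0.34, edgeR FDR 0.0186) per region counts. With TMM factors the fold change was 1.00 and the call was lost, with an edgeR FDR of 0.157. Over all 33 regions of the scaffold the share of region counts was 3.66% and 3.45% in KO and 2.65% and 2.57% in WT.

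The other higher calls named here were weak in WT. The intergenic region chr2:100778928-100779420, 781 kb from the nearest protein-coding gene B230118H07Rik, had 46 and 35 reads in KO against 0 and 4 in WT, with a fold change of 4.64 on the log2 scale (SE 0.79, edgeR FDR 1.00e-05) per library total and 4.03 (SE 0.84, edgeR FDR 0.00189) per region counts. Both KO libraries were high and both WT libraries near empty, and the call held with TMM factors (edgeR FDR 0.00416). An intron of Rps6kc1, a ribosomal protein S6 kinase-like gene, at chr1:190902700-190903018 had 43 and 28 reads in KO against 3 and 0 in WT (edgeR FDR 4.23e-05 per library total and 0.00384 per region counts). An intron of Lrrc4c, which encodes the netrin-G ligand NGL-1, at chr2:97504796-97505236 had 37 and 24 in KO against 0 and 3 in WT (edgeR FDR 0.000677 per library total and 0.0186 per region counts). These calls were named from those without overlap of the genotypes, so the lack of overlap here follows from the choice. Over an exon of Spock3, a testican proteoglycan, at chr8:62951351-62951772 the counts were 54 and 28 in KO against 6 and 4 in WT (edgeR FDR 0.000677 per library total and 0.0289 per region counts). With TMM factors the Spock3 call was lost (edgeR FDR 0.0675). An intron of Vps13a at chr19:16737377-16737792 had 18 and 30 reads in KO and 0 in both WT libraries, at least 10.3-fold higher in KO per library total when each WT library is set to 3 reads.

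In most lower calls the WT libraries differed from each other. In 36 of the 50 lower calls per region counts, and 13 of the 15 per library total, WT library 2 exceeded WT library 1 more than 2-fold, and 27 of the 50 lay on chromosome 13. The region with the smallest FDR, chr13:120025530-120026227 beside Gm36079, had 6 and 1 reads in KO, 10 in WT library 1 and 194 in WT library 2 (edgeR FDR 2.00e-11 per region counts), so 1 library carried nearly all of its signal. WT library 2 was also far above the other 3 libraries at chr12:115616984-115617796 over Gm9245, with 39 and 34 in KO, 53 in WT library 1 and 381 in WT library 2, and at chr13:66678124-66678511 in an intron of the annotated locus Zfp640, with 8 and 10 in KO, 11 in WT library 1 and 103 in WT library 2.

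In 11 other lower calls per region counts the WT libraries lay within 1.5-fold of each other. This group was set apart after its values were seen. It included an intron of Dgki, a diacylglycerol kinase gene, on chromosome 6, with 317 and 354 reads in KO against 841 and 751 in WT. Both KO libraries were low and both WT libraries high, with a fold change of -1.52 on the log2 scale (SE 0.34, edgeR FDR 0.00516) per region counts. Per library total it was -0.86 (SE 0.33, edgeR FDR 0.131), so the region was below WT on both scales and passed the test on one. An intron shared by Jph1, a junctophilin, and Gm28376 at chr1:17014089-17014328 had 187 and 233 in KO against 543 and 464 in WT (edgeR FDR 0.0102 per region counts). An intergenic region at chr7:71083964-71084430 had 514 and 588 in KO against 1189 and 1107 in WT (edgeR FDR 0.0147 per region counts). Per library total none of the 11 was called, and their log2 fold changes there ran from -1.29 to -0.50.

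Cdc27, a subunit of the anaphase-promoting complex, was singled out after its values were seen. It spans 104502745 to 104550620 on chromosome 11, on the minus strand, and held 6 regions. All 6 touched an exon, where exons make up 13.1% of the gene. In all 6, both KO libraries were below both WT libraries per region counts, and in 5 also per library total. The region shown above, in chr11:104534594-104535009, had 81 and 74 reads in KO against 224 and 204 in WT, a fold change of -1.73 on the log2 scale (SE 0.41, edgeR FDR 0.0147) per region counts and -1.07 (SE 0.40, edgeR FDR 0.120) per library total. Of the other 5, chr11:104521344-104521628 was also called, with 44 and 45 reads in KO against 151 and 109 in WT (edgeR FDR 0.0224 per region counts). Whether human spike-in reads were removed before counting is not given in the sources used here, so the counts at these exons may not be mouse reads alone.

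Counts were also summed in 1 Mb bins. Of 1302 bins with at least 3 regions, edgeR called 763 higher in KO per library total (58.6%) and 5 lower (0.384%). Per region counts it called 42 higher (3.23%) and 13 lower (0.998%), and all 42 were among the 763. Leaving out either KO library left 0 bins per library total in edgeR, with an unadjusted p under 0.05 at 631 higher bins without KO library 1 and 594 without KO library 2. Per region counts it left 6 bins without KO library 1, of which 1 was higher and 5 lower, and 20 without KO library 2, of which 9 were higher and 11 lower. Leaving out WT library 1 or WT library 2 gave 294 and 238 bins per region counts. With TMM factors the calls were 17 lower and 0 higher per library total, with 92 higher at an unadjusted edgeR p under 0.05. The 42 higher bins then had log2 fold changes above 0 in every case, but none was called. A fit with a term for the replicate number called 1 bin higher and 6 lower per region counts.

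The bins described here are part of those with the smallest FDR. From 101 to 102 Mb on chromosome 10, where Mgat4c, a glycosyltransferase gene, is the only protein-coding gene, 25 regions held 489 and 511 reads in KO against 114 and 188 in WT. The log2 fold change was 2.11 (SE 0.25, edgeR FDR 0.00348) per library total and 1.48 (SE 0.24, edgeR FDR 0.0165) per region counts, and 19 of the 25 regions had both KO libraries higher than both WT libraries per region counts. This was the 1 higher bin of the 42 whose call per region counts held whichever library was left out, in fits where the lone library of a genotype was assumed to vary like the other genotype. From 22 to 23 Mb on chromosome 19, over Trpm3, a cation channel gene, 6 regions held 164 and 126 reads in KO against 26 and 34 in WT, a fold change of 2.66 on the log2 scale (SE 0.35, edgeR FDR 0.00363) per library total and 2.02 (SE 0.37, edgeR FDR 0.0281) per region counts. From 51 to 52 Mb on chromosome 19, where no protein-coding gene is annotated, 30 regions held 693 and 793 in KO against 327 and 279 in WT (1.02, SE 0.20, edgeR FDR 0.0311). From 97 to 98 Mb on chromosome 2, over Lrrc4c, 23 regions held 482 and 541 in KO against 230 and 203 in WT (0.97, SE 0.20, edgeR FDR 0.0311). The counts of the genotypes did not overlap in any of these bins on either scale. The same held for all 763 and all 42 bins called higher, each on the scale of its call. Of the 42 higher bins, 7 lay on chromosome 19, which held 34 of the bins tested.

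Most of the lower bins rested on a single region each. In 11 of the 13, 1 region held over 50% of the signal, and all 13 were also lower with TMM factors. The bin from 36 to 37 Mb on chromosome 6 was that of Dgki, with 355 and 388 reads in KO against 869 and 787 in WT, a fold change of -1.43 on the log2 scale (SE 0.20, edgeR FDR 0.0120) per region counts and -0.77 (SE 0.14, edgeR FDR 0.00540) per library total. The bin from 104 to 105 Mb on chromosome 11 was that of Cdc27, with 525 and 636 in KO against 1319 and 1118 in WT (-1.35, SE 0.22, edgeR FDR 0.0165, per region counts). An intron of Atp7b, a copper-transporting ATPase, carried the bin from 22 to 23 Mb on chromosome 8, with 134 and 184 in KO against 362 and 330 in WT (-1.40, SE 0.23, edgeR FDR 0.0174). The bin from 145 to 146 Mb on chromosome 3, beside Gm17501, had 125 and 152 in KO against 343 and 338 in WT (-1.57, SE 0.23, edgeR FDR 0.0120). Only this bin and that of Dgki kept an edgeR FDR under 0.05 per region counts whichever library was left out.

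**Figure D3:**
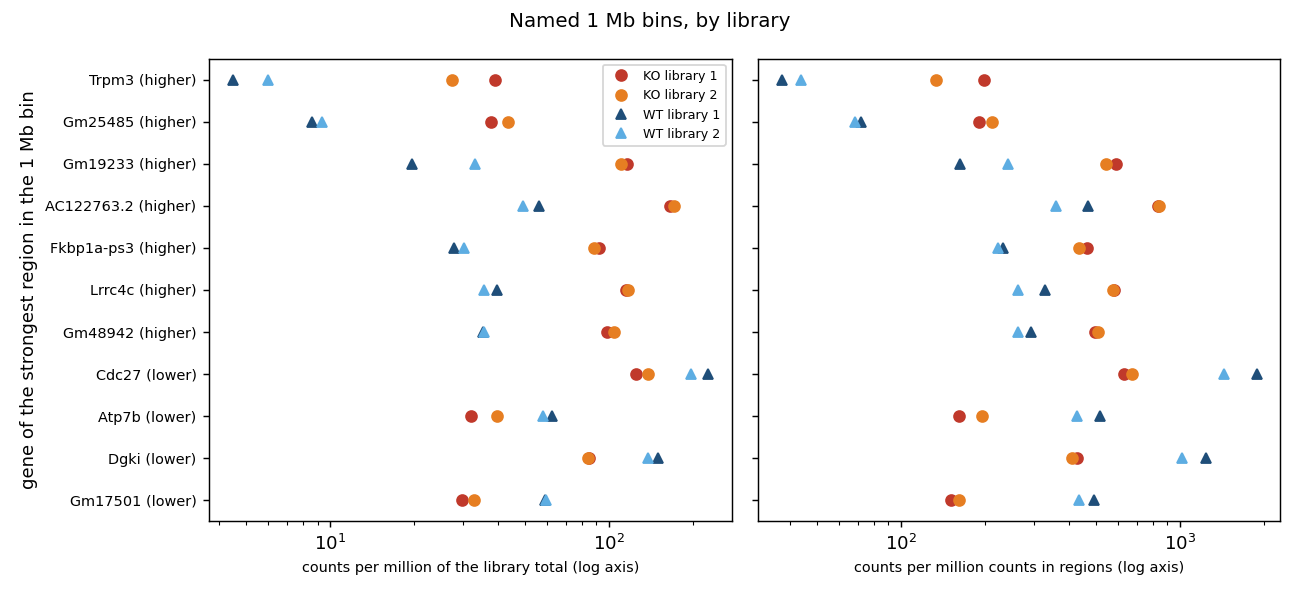
Counts of the named 1 Mb bins in each library, scaled by the library total (left) and by the counts in regions (right), on log axes, each bin labelled by the gene in or beside its strongest region and by its direction per region counts. KO circles and WT triangles do not overlap in any row, with KO above WT in the upper 7 rows and below WT in the lower 4. Every bin called by edgeR lacked overlap on the scale of its call.

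HAT1-dependent accessibility domains (HADs) are the large domains that the study defined by ATAC-seq, an assay of open chromatin, from their lower accessibility without HAT1. The HADs used here were found in primary MEFs, whereas the H3K9me3 libraries came from immortalized MEFs. The H3K9me3 table played no part in their definition. Regions were denser in HADs, with 14.5 per Mb against 4.30 per Mb outside, and 3815 regions in 152 HADs. With the 10 strongest regions left out, HADs held 15.96% (95% Wilson interval 15.9% to 16.1%) and 15.7% (15.6% to 15.8%) of the region counts in the KO libraries. In WT the shares were 12.7% (12.6% to 12.8%) and 12.02% (11.9% to 12.1%), so the groups did not overlap. KO averaged 15.8% ± 0.187 (SD, n = 2) against a WT mean of 12.4% ± 0.507 (SD, n = 2), and the exact permutation p was 0.333, the smallest possible. These intervals cover counting error only.

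Per library total the median log2 difference was 1.16 in HADs and 0.94 outside, and per region counts 0.51 and 0.29. The gap between the medians was 0.22. The median log2 RPM in HADs minus that outside, taken within each library, was 0.14 higher in KO than in WT (exact permutation p = 0.333, the smallest possible). Of the HAD regions 91.1% had a single summit against 85.8% outside. Within regions of 2 or more summits the medians were 1.05 in 338 HAD regions and 0.64 in 1499 others per library total, and within the top quartile of mean counts 0.93 and 0.58. In the lowest quartile they were 1.47 and 1.41. Of the regions called per library total, 26 of the 114 higher and 0 of the 15 lower lay in HADs, which held 26.3% of all regions. In the 120 HADs with at least 5 regions, the summed signal of both KO libraries was above that of both WT libraries in all 120 per library total. Per region counts this held in 97 of them, and 3 had both KO libraries below both WT libraries. Over all 1 Mb bins with at least 5 regions the shares above WT were 91.4% per library total and 54.5% per region counts, and those below 0.651% and 7.82%. Over such bins with no HAD base they were 87.8% and 44.1% above and 1.01% and 11.2% below. The KO over WT ratio of these sums had a median of 2.09 per library total and 1.33 per region counts. It was highest, 4.33 and 2.81, in the HAD on chromosome 10 that holds the Mgat4c bin, whose 32 regions had 632 and 643 reads in KO against 132 and 252 in WT. Of the 248 bins with at least 50% of their length in HADs, 222 were called higher per library total (89.5%) and 20 per region counts (8.06%), beside 58.6% and 3.23% of all bins. HAD bins held a median of 14 regions against 7 over all bins.

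**Figure D4:**
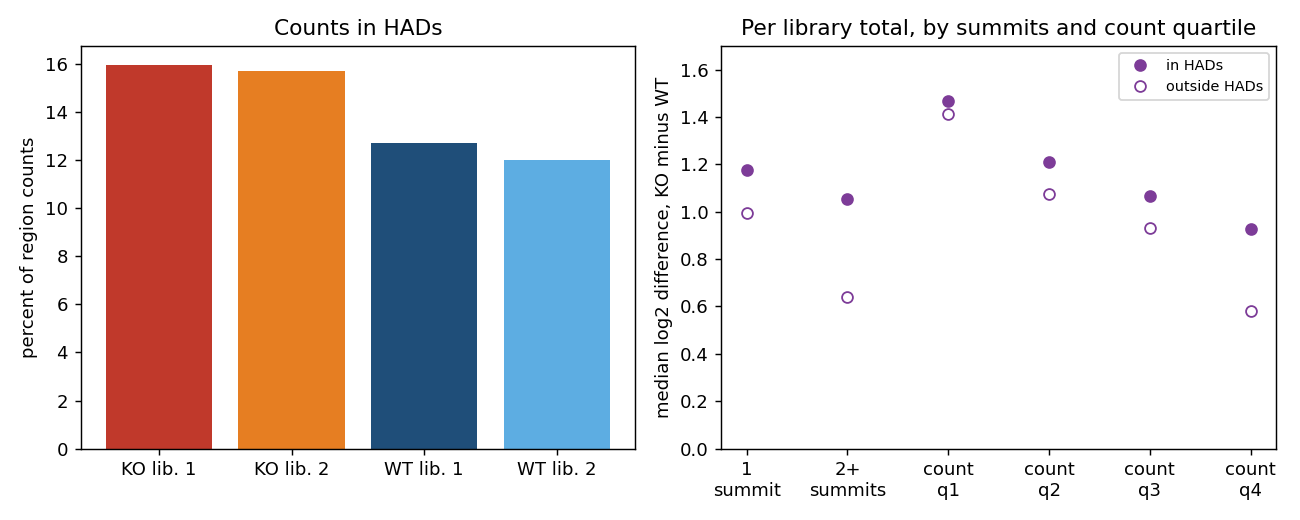
Left, percent of each library's region counts in HADs, the 10 regions with the most reads left out. Right, median log2 difference of regions inside (filled) and outside (open) HADs per library total, by the number of summits and by quartile class of the mean count, lowest (q1) to highest (q4). KO bars stand at 15.96% and 15.7% and WT bars at 12.7% and 12.02%, and the filled circle is above the open one in each class.

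Long genes for neuronal adhesion and synaptic receptors carried many regions. Of 36 listed, 32 overlapped at least 1 region and together they held 351, a density of 10.2 per Mb against 5.28 over the genome. Their regions had a median log2 difference of 1.20 per library total and 0.55 per region counts, beside 1.00 and 0.35 over all regions, and edgeR and DESeq2 called 0 of the 351 on either scale. At an unadjusted edgeR p under 0.05 there were 96 higher and 0 lower per library total, and 10 and 3 per region counts, beside 3287 and 102, and 510 and 499, of all 14515 regions. With counts summed per gene, both KO libraries exceeded both WT libraries at 30 of the 32 genes per library total. Per region counts this held at 17, and 1 gene, Robo1, an axon guidance receptor, had both KO libraries below both WT libraries. Over all 1501 coding genes with a region the shares above WT were 53.2% per library total and 26.4% per region counts, and those below WT 5.8% and 20.6%. Over the 120 coding genes with at least 5 regions they were 91.7% and 58.3% above and 0.833% and 4.17% below. Csmd3 had 746 and 933 reads in KO against 438 and 422 in WT over 39 regions, a KO over WT ratio of 2.54 per library total and 1.61 per region counts. Lrp1b had 801 and 1012 in KO against 599 and 545 in WT over 46 regions, a ratio of 2.06 and 1.31. Cdh10, a cadherin, had 195 and 207 in KO against 101 and 64 in WT, a ratio of 3.19 and 2.00. The 162 regions of the list outside HADs had a median log2 difference of 1.22 per library total and 0.57 per region counts, and the 189 inside had 1.18 and 0.53.

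**Figure D5:**
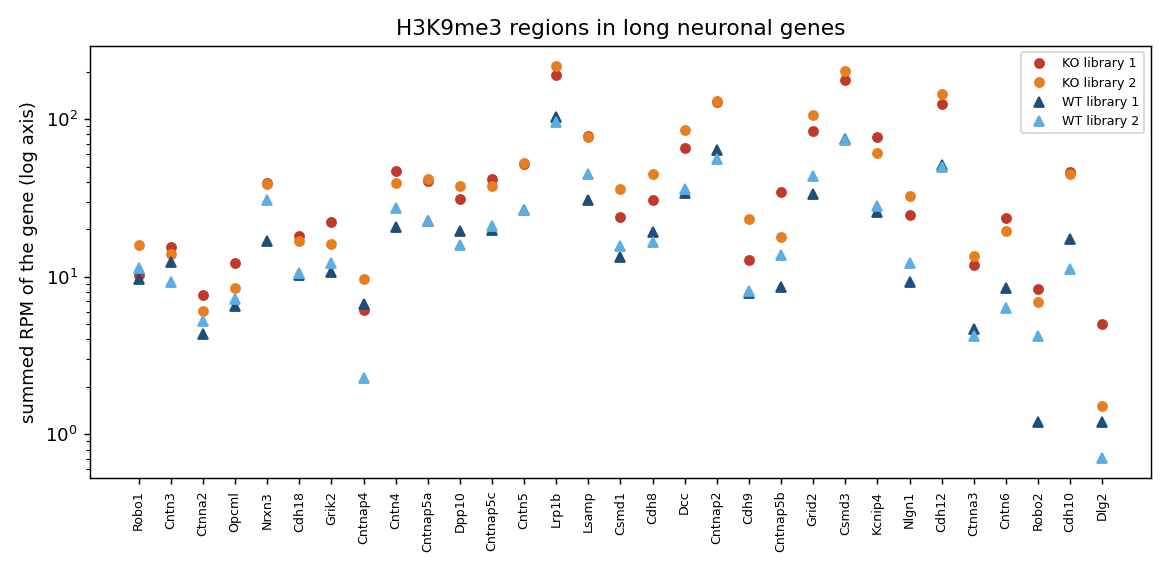
Summed RPM of the H3K9me3 regions in 31 of the neuronal genes that overlap a region, by library, on a log axis, with genes ordered by the KO over WT ratio per region counts. The KO circles lie above both WT triangles at 29 genes, and they overlap at Robo1 and Cntnap4.

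C2H2 zinc-finger genes, many of which encode KRAB repressors that recruit the H3K9me3 machinery to retrotransposons, differed from the table as a whole in their values. Of 490 genes, 71 overlapped 134 regions. The median log2 difference of these regions was 0.33 per library total, beside 1.00 over all regions, and -0.32 per region counts, beside 0.35. They also had more reads, with a median mean count of 24.1 against 15.75 over all regions. All regions with a mean count from 20 to under 50 had medians of 0.72 and 0.07. The part of read number in the difference was not tested. Both KO libraries were below both WT libraries per region counts in 47 of the 134 (35.1%), beside 10.8% of all regions. Of the 134, 4 were called lower per region counts, beside 0.344% of all regions, and 1 per library total, beside 0.103%. All of these calls were among the 17 regions on chromosome 13, which had 231 and 314 reads in KO, 318 in WT library 1 and 943 in WT library 2. The strongest was in an intron of Zfp821 on chromosome 8, with 134 and 191 reads in KO against 222 and 251 in WT, and it was not called on either scale (edgeR FDR 0.753 per library total and 0.678 per region counts). Those 17 regions had a median of -0.56 per library total. The 45 regions on chromosome 4, where the median difference between the WT libraries was 0.03, had medians of 0.34 per library total and -0.31 per region counts. At Zfp981 on that chromosome, 3 regions had 244 and 268 reads in KO against 253 and 352 in WT, a KO over WT ratio of 1.10 and 0.708, and the genotypes overlapped per library total.

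Olfactory receptor genes had 104 regions at 100 of 1405 genes, with medians of 1.19 per library total and 0.54 per region counts. Neither edgeR nor DESeq2 called any of them, and an unadjusted edgeR p under 0.05 was reached at 28 higher and 1 lower of the 104 per library total and at 2 and 2 per region counts, with the counts over all 14515 regions as given above. Vomeronasal receptor genes had 95 regions at 72 of 565 genes, with medians of 0.78 and 0.13. One of them was called higher per library total, in an intron of Vmn2r57 at chr7:41412974-41413805, with 38 and 43 reads in KO against 12 and 6 in WT (edgeR FDR 0.0136), beside 0.785% of all regions called higher. Per region counts it was not called (edgeR FDR 0.334). The Skint genes, which encode thymic selection proteins of the skin, held 28.8 regions per Mb, at 8 of 11 genes, with medians of 0.48 and -0.18. Cytochrome P450 genes had 30 regions at 20 of 111 genes, with medians of 1.18 and 0.53. The 19 over the Cyp2c cluster of chromosome 19, which encodes drug and steroid hydroxylases of the liver, summed to 163 and 175 RPM in KO and 65.9 and 65.8 RPM in WT, a KO over WT ratio of 2.57 per library total and 1.63 per region counts. Over the whole of chromosome 19 these ratios were 2.32 and 1.47. The Cyp2c regions had medians of 1.24 and 0.59, below the 1.42 and 0.76 of that chromosome. No defensin, Pramel or Hox gene overlapped a region, in gene bodies of 0.251, 0.0957 and 0.386 Mb.

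Imprinted genes held 6 regions at 7 of 53 genes, and 0 were called on either scale by edgeR or DESeq2, with an unadjusted edgeR p under 0.05 at 1 higher and 0 lower per library total and 0 and 2 per region counts. Their medians were 0.13 per library total and -0.52 per region counts. The strongest was over Nap1l5, a retrogene inside Herc3 that is expressed from the paternal allele, at chr6:58906531-58907481, with 61 and 44 reads in KO against 84 and 54 in WT. The groups overlapped per library total, where the log2 fold change was 0.0045 (SE 0.47, edgeR FDR 0.995). The region over Peg13 within Trappc9 had 17 and 9 in KO against 43 and 13 in WT, and the 2 over Kcnq1ot1, the long noncoding RNA of the Kcnq1 domain, summed to 25 and 30 in KO against 46 and 44 in WT. Both KO libraries were below both WT libraries at Kcnq1ot1 on both scales, a KO over WT ratio of 0.796 and 0.505, without a call. The region over Copg2, a coatomer subunit gene, went the other way, with 67 and 42 reads in KO against 21 and 27 in WT, a ratio of 2.998 and 1.93, also without a call. Among 23 germline and meiosis genes, 5 overlapped a region. Their 6 regions had medians of -0.25 per library total and -0.90 per region counts. The highest ratio among these genes was at Tex101, a germ cell surface protein gene, with 11 and 21 reads in KO and 3 in each WT library. Of 34 genes of the H3K9 methylation and heterochromatin machinery, Atf7ip and Hells overlapped 1 region each and neither was called.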

How the data were processed

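H3K9me3 ChIP-seq of 2 HAT1 KO and 2 HAT1 WT libraries was analysed. The authors aligned paired-end reads to mm10 with BWA 0.7.12 and called peaks with MACS2 2.1.0, and DiffBind is named in their processing notes. They deposited raw read counts per region and library, and RPM values. The deposited RPM equals the count plus 1 over one total per library, to within 0.000524%, which gave the totals. Whether the counts or totals hold human reads, or were scaled by the spike-in, is not given in the sources used here. Deposited fold changes, p-values and fold enrichments were not used. Starts were read as counted from 0, and 1 was added. Groups came from the sample titles.

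Counts of regions and of 1 Mb bins with at least 3 regions were fitted in edgeR 4.0.16 (R 4.3.3) with glmQLFit and glmQLFTest, no filter and no block, with library totals or region counts as library sizes, at a Benjamini-Hochberg FDR under 0.05. Median differences used log2 with a pseudocount of 1. Library values were compared by exact two-sided permutation. Regions were assigned to HADs by midpoint and to genes by an overlap of 1 bp with GENCODE M21 gene bodies, and bases came from GRCm38.p6. Region DNA of the unplaced scaffolds and mitochondrion was not used. Alternatives were TMM factors, DESeq2 1.42.0, a mean count of at least 10, a replicate block, another pseudocount and leaving out each library. In simulated counts edgeR recovered 0% of regions changed 2-fold and 0.5% of 200 changed 4-fold in 14515 regions, and 50% and 100% in 1302 bins. Regions named were the 10 with the highest mean RPM, up to 6 called in each direction and scale with the groups apart and the smallest FDR, and the strongest and called regions of each gene class. Bins named were up to 4 per direction and scale. The text prints part of each set. Some items of these sets are not reported here. The regions, lists and rules were chosen with earlier results of these data known.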

Additional observations from a re-analysis of the deposited data

How the results depend on the processing

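The number of calls and their split by direction depended on the scaling and on single libraries. With TMM factors, which centre the bulk of regions, the median log2 difference was -0.011 from library totals and -0.012 from region counts, with 145 (4 higher, 141 lower) and 144 (4 higher, 140 lower) changed regions and 17 and 16 changed bins, all lower. DESeq2 called 40 regions per library total (40 higher, 0 lower, with 37 lower at an unadjusted p under 0.05) and 33 per region counts (1 higher, 32 lower). Leaving out one library gave from 0 to 304 regions and 0 to 844 bins per library total, and from 0 to 288 regions and 6 to 294 bins per region counts. Without KO library 1 or KO library 2, most of the 6 and 20 bins left per region counts were lower, with 5 and 11 of them. The median difference ran from 0.93 to 1.06 per library total and from 0.27 to 0.38 per region counts across these settings. Limiting the bins to chromosomes 1 to 19, an alternative chosen after seeing the data, gave 95 per region counts. The share of counts in HADs, higher by 3.45 percentage points in KO, was higher by 2.35 with the 10 strongest regions kept, 4.07 on chromosomes 1 to 19 and 0.879 in regions of 2 or more summits, an alternative added after seeing the data. The gap between medians in and outside HADs was 0.41 in those regions and from 0.20 to 0.31 with one library left out. Bins with at least 5 regions gave 681 higher and 1 lower per library total and 48 higher and 6 lower per region counts. The settings not named here kept the direction, with total counts within 1.5 times those reported. With a library left out, the lone library of its genotype was assumed to vary like the other genotype. The cause of these changes was not tested.

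The correlation, across regions, of the deviations of libraries with the same replicate number was 0.00402. With few reads in most regions, this value cannot show whether such libraries share a batch. A replicate block gave 185 changed regions and 775 bins per library total, and 47 regions and 7 bins (1 higher, 6 lower) per region counts. In the simulated counts few single regions changed 4-fold were called, and the part of low counts in this was not tested.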
